A study of Mus musculus with 2 samples.

Results

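Transcripts of milk and of the mammary epithelium were followed through a single-cell data set of sorted T cells: Csn1s1, Csn2, Csn3, Wap, Wfdc18, Lcn2, Mfge8, Epcam, Krt8 and Krt18. They were taken by gene symbol, as 10 of the 32285 genes listed in both count matrices. The choice of these 10 was made with earlier results of these data known. Live CD8 T cells (CD45+ TCRB+ CD8a+) had been sorted from the 4th mammary fat pads of untreated C57BL/6 mice. One library came from multiparous mice (parous) and 1 from virgin mice, each a pool of at least 5 mice, so each group held 1 library and no replicate error could be measured. The sources used here do not state the ages of the mice or the time since the last litter. The gate should have removed epithelial cells, and the question put to these genes was where their molecules lay: in T cells, in the few other cells, or thinly over all barcodes as RNA carried over in the droplets.

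Caseins are the phosphoproteins that make up most of milk protein, and they assemble into micelles that carry calcium. Their genes are switched on in secretory (alveolar) epithelial cells during pregnancy and lactation by prolactin, whose receptor acts through the transcription factor STAT5, together with glucocorticoid. Keratins 8 and 18 pair to form the intermediate filaments of luminal epithelial cells, and EpCAM is an adhesion protein on the surface of epithelia.

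On the mouse build GRCm38 the casein genes lie together on chromosome 5: Csn1s1 at chr5:87666208-87682578 (plus strand), Csn2 at chr5:87692624-87699630 (minus strand) and Csn3 at chr5:87925579-87932665 (plus strand). The gap between Csn1s1 and Csn2 is 10.0 kb and that between Csn2 and Csn3 is 225.9 kb. Krt8 (chr15:101996698-102004482) and Krt18 (chr15:102028180-102032027), a type II and a type I keratin gene, are 23.7 kb apart. Wap (chr11:6635482-6638637) and Wfdc18 (chr11:83709015-83711348) share a chromosome but are not neighbours. Lcn2 is at chr2:32384633-32388252, Mfge8 at chr7:79133768-79149060 and Epcam at chr17:87635979-87651129. All 10 are protein-coding genes.

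The 250 bases before the start of Csn1s1 are shown because STAT factors bind the palindrome TTCNNNGAA and this stretch holds one. The sequence is from RefSeq on GRCm38.p6, chr5:87665958-87666207 (plus strand), read 5′ to 3′ with the palindrome in capitals.
Csn1s1: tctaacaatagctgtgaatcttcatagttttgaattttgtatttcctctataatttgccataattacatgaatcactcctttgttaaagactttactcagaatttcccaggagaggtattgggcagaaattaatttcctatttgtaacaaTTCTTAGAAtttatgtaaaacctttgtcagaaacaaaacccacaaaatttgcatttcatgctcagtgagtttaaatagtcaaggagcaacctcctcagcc
The palindrome began 100 bases before the start of Csn1s1, as TTCTTAGAA. In Csn2 it began 93 bases before the RefSeq start, as TTCTTGGAA. GENCODE, which gives the gene positions above, starts Csn2 further upstream, so this match lies inside the gene by GENCODE and before it by RefSeq. A promoter was given for 9 of the 10 members (all but Csn3), and 2 of those 9 held the palindrome. The palindrome reads alike on both strands. It was present in 2306 of 32851 promoters of the same length, or 7.02%, and a match is a description of the letters only.

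The parous matrix held 4927 barcodes with 14676415 UMIs (unique molecular identifiers, which count captured RNA molecules), and the virgin matrix held 2526 barcodes with 20166425 UMIs. Barcodes were put into 3 classes. Cd3-positive cells had at least 1000 UMIs and a UMI of Cd3d, Cd3e or Cd3g, which encode the CD3 chains of the T cell receptor complex. Other cells had at least 1000 UMIs and no such UMI, and the remaining barcodes had under 1000 UMIs. The parous library had 2992 Cd3-positive cells (median 4116 UMIs), 30 other cells and 1905 barcodes under 1000 UMIs. The virgin library had 2499 Cd3-positive cells (median 7003 UMIs), 15 other cells and 12 barcodes under 1000 UMIs. As to the sort, 80.2% of the parous Cd3-positive cells and 95.6% of the virgin ones had a Cd8b1 UMI, and 0.401% and 0.0800% had a Cd4 UMI. The libraries thus differ in depth and in the number of shallow barcodes, and neither difference can be told apart from parity. The libraries shared 18 barcode sequences, no doublet caller was run, and cells of a library are not replicates of its group.

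Casein transcripts were found in the parous library only, with 1187 UMIs of Csn1s1, Csn2 and Csn3 in 14 of 4927 barcodes. The virgin library had 0 casein UMIs among 20166425, although it was the deeper of the pair. Of the parous UMIs, 470 were of Csn1s1, 147 of Csn2 and 570 of Csn3. The 30 other cells held 831 casein UMIs, or 7770 CPM, UMIs of a gene per 1000000 UMIs of the class (95% exact Poisson interval 7251 to 8317), all in 2 barcodes. The 2992 Cd3-positive cells held 356, or 26.7 CPM (24.0 to 29.6), in 12 barcodes, a share of 0.401% (95% exact Clopper-Pearson interval 0.207% to 0.700%). All these intervals cover counting error only. The 1905 shallow barcodes held 0 casein UMIs among 1214831. Taking 3 UMIs as a floor, this allows up to 2.47 CPM and a share of barcodes of up to 0.157%. The exact 95% upper limits are higher, at 3.04 CPM and 0.193%. Where the text below says that 0 UMIs allow a level, it uses the floor of 3 UMIs.

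**Figure D1:**
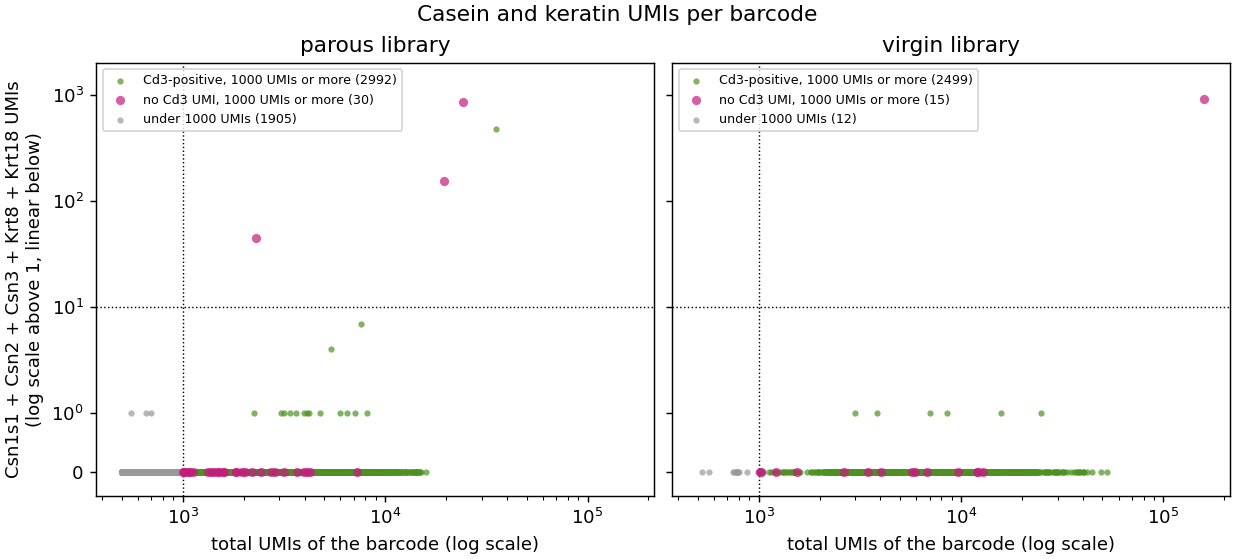
Each point is a barcode, with its total UMIs on the x axis (log scale) and its summed UMIs of Csn1s1, Csn2, Csn3, Krt8 and Krt18 on the y axis (log above 1, linear below). The horizontal dotted line marks 10 such UMIs and the vertical one 1000 total UMIs. Above 10 are 4 parous barcodes and 1 virgin barcode, and nearly all others lie at 0 or 1.

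The casein UMIs lay in very few barcodes. A barcode was called rich when it held at least 10 UMIs of Krt8, Krt18 and the caseins together, a limit set after the values were seen. The parous library had 4 such barcodes and the virgin library had 1. The 4 parous barcodes held 1168 of the 1187 casein UMIs, or 98.4%. Just below the limit was a parous Cd3-positive cell of 7599 UMIs with 6 casein UMIs and 1 keratin UMI. The lowest barcode above it had 40 casein UMIs and 5 keratin UMIs.

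The parous barcode richest in caseins had 24137 UMIs, of which 3.28% were casein: 285 of Csn1s1, 109 of Csn2 and 397 of Csn3. It held no Cd3 UMI and no Ptprc UMI, Ptprc being the gene of the pan-leukocyte antigen CD45 used in the gate. It also held 315 UMIs of Lcn2, 127 of Mfge8, 49 of Wfdc18, 46 of Epcam, 20 of Krt8 and 56 of Krt18. On a list of 24 luminal epithelial genes, 17 had a UMI in this barcode. On a list of 30 milk and lactation genes, which did not enter the choice of this barcode, 20 had a UMI in it. Among them were Trf (transferrin) with 371 UMIs, Ltf (lactoferrin) with 166, Csn1s2a with 60, Btn1a1 (butyrophilin of the milk fat globule) with 24, Lalba (alpha-lactalbumin, the lactose synthase cofactor) with 7 and Elf5 (an alveolar transcription factor) with 11.

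A second parous barcode, of 35384 UMIs, was the deepest of its library, at 8.60 times the median of the Cd3-positive cells. It held 161 UMIs of Csn1s1, 35 of Csn2 and 141 of Csn3, or 0.952% of its UMIs. Lcn2 had 108 UMIs in it, Mfge8 72, Wfdc18 30, Epcam 58, Krt8 57 and Krt18 85. UMIs of all 24 genes of the luminal epithelial list and of 18 of the 30 milk and lactation genes were present. Prlr, the prolactin receptor gene, had 85. This barcode counted as Cd3-positive because of 6 Cd3d UMIs, with 0 of Cd3e and Cd3g. Its Cd3 level was 1.70 per 10000 UMIs, against a median of 30.7 and a 5th percentile of 13.5 in parous Cd3-positive cells. It also held 7 Ptprc UMIs, 2 of Cd8a and 1 of Cd8b1. Whether it held RNA of more than 1 cell was not tested.

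The third casein-holding barcode was shallow, with 2306 UMIs. It held 16 UMIs of Csn1s1, 0 of Csn2 and 24 of Csn3 (1.73% of its UMIs), with 19 of Lcn2, 4 of Mfge8, 2 of Krt8, 3 of Krt18, 21 of Trf and 11 of Lalba. Epcam was at 0 in it, as was Cd3. It held UMIs of 6 of the 30 milk and lactation genes and 6 of the 24 luminal genes. Its mitochondrial share was 5.55%, against a median of 1.02% in parous Cd3-positive cells.

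The remaining parous rich barcode, of 19542 UMIs, had keratins but no casein. It held 59 UMIs of Krt8, 97 of Krt18 and 61 of Epcam, and 0 of Csn1s1, Csn2, Csn3, Wfdc18, Lcn2 and Mfge8. Genes known from hormone-sensing luminal cells were present in it, with 109 UMIs of Areg (amphiregulin), 58 of Prlr and 8 of Pgr (the progesterone receptor gene), along with 116 of Krt19. It held UMIs of 4 of the 30 milk and lactation genes and 17 of the 24 luminal genes. In the casein-holding barcodes of 35384, 24137 and 2306 UMIs, Areg had 1, 0 and 0 UMIs and Pgr 2, 0 and 0. Esr1, the oestrogen receptor gene, had 4, 0 and 0 there, against 3 in the barcode without casein. Foxa1, also on the luminal list, had 5, 0 and 0, against 2. Esr1 and Foxa1 thus did not set the barcode without casein apart from the deepest one.

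The virgin rich barcode had 159136 UMIs, 22.7 times the median of the virgin Cd3-positive cells, and 0 casein UMIs. Krt18 had 629 UMIs in it, Krt8 281, Epcam 220, Wfdc18 77, Mfge8 36 and Lcn2 23. Areg had 745 UMIs, Krt19 507 and Prlr 388, while Trf had 14. All 24 luminal genes and 13 of the 30 milk and lactation genes were seen. Per 10000 UMIs, Areg stood at 46.8 in this barcode and 55.8 in the parous barcode without casein. Trf stood at 0.880 and 0.512 in those barcodes, against 90.2, 154 and 91.1 in the 3 parous barcodes with caseins. Prlr did not follow that split, at 24.4 and 29.7 without caseins and at 24.0, 1.66 and 0 with them.

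**Figure D2:**
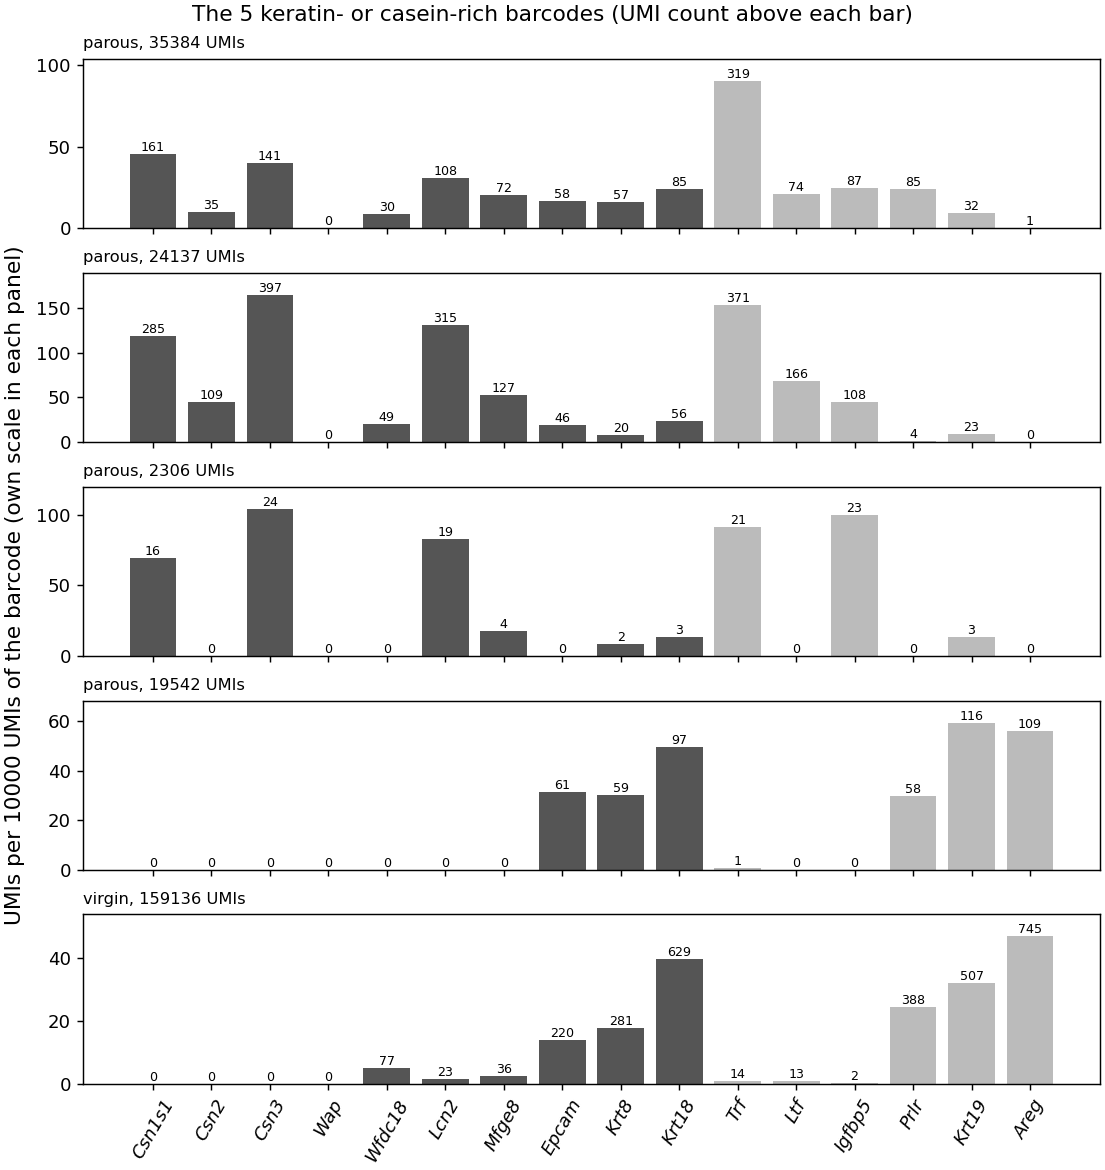
Bars give the UMIs of each gene per 10000 UMIs of the barcode, with the UMI count above each bar, for the 10 genes (dark) and 6 other epithelial or milk genes (light) in the 5 rich barcodes. The y axis has its own scale in each panel. The upper 3 panels hold caseins, and the lower 2 have 0 casein UMIs. Areg has 109 and 745 UMIs in the lower 2 and 1, 0 and 0 in the upper 3. Krt8, Krt18 and Krt19 have UMIs in all 5. Lcn2 and Trf are in the upper 3 and also in the virgin barcode, with 23 and 14 UMIs.

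On a list of 14 basal or myoepithelial genes, the casein-holding barcodes of 35384, 24137 and 2306 UMIs had 87, 110 and 23 UMIs, of which 87, 108 and 23 were of Igfbp5. The parous barcode without caseins had 0 and the virgin barcode had 3. The basal keratins Krt5, Krt14 and Krt17, singled out after their values were seen, were at 0 in all 5, and Krt15 had 1 UMI in the virgin barcode. The B cell, dendritic cell, neutrophil and erythroid marker lists were at 0 in each. The macrophage or monocyte list had 10, 2 and 6 UMIs in the casein-holding barcodes in the same order and 1 in each of the others, and the adipocyte list had 5, 1 and 0, then 1 (parous) and 5 (virgin). The casein make-up differed between the deepest casein-holding barcodes beyond counting error. Csn1s1 made up 47.8% (42.3% to 53.3%) of casein UMIs in the barcode of 35384 UMIs and 36.0% (32.7% to 39.5%) in that of 24137 UMIs. Csn2 made up 10.4% (7.34% to 14.1%) and 13.8% (11.5% to 16.4%), which overlap, and Csn3 41.8% (36.5% to 47.3%) and 50.2% (46.6% to 53.7%), which overlap slightly. These 2 barcodes are single barcodes of 1 pool and stand for no group.

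Outside the rich barcodes, 19 casein UMIs remained in the parous library, all in 11 of the 2991 other Cd3-positive cells. That is a share of 0.368% (0.184% to 0.657%) and a level of 1.43 CPM (0.859 to 2.23). Of the 11 cells, 9 held a single casein UMI, another held 4, and the cell of 7599 UMIs held 6. These cells had 7 to 27 Cd3 UMIs each, and 3 of the 11 held a UMI of another member. The cell with 6 casein UMIs also held 7 UMIs of Mfge8, 2 of Lcn2, 1 of Epcam and 1 of Krt8. By composition the 19 UMIs were 8 of Csn1s1, 3 of Csn2 and 8 of Csn3. The 27 other cells outside the rich barcodes held 0 casein UMIs among 60959, which allows up to 49.2 CPM.

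The casein UMIs in T cells were also split by state. Naive-marked cells had a UMI of Ccr7, a lymph node homing receptor, and none of Itgae, Itga1 or Cxcr6. Resident-marked cells had a UMI of Itga1 or Cxcr6, which mark tissue-resident T cells, and none of Ccr7. The 580 naive-marked parous cells held 6 casein UMIs (2.05 CPM) and the 1260 resident-marked cells held 5 (0.910 CPM). At these counts no difference between the states was detectable. Virgin cells held 0 casein UMIs in either state.

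In Cd3-positive cells the parous casein level was 177 times the virgin floor of 3 UMIs (0.151 CPM). Without the single rich barcode in this class it was 9.47 times that floor. The exact lower limits of the parous to virgin ratio, which take in counting error, were lower, at 143 and 6.98. The samples give 1 library per group, so none of these values has a replicate check. The shallow parous barcodes had 0 casein UMIs. The ratio of their CPM to that of the Cd3-positive cells outside the rich barcodes was 0 (0 to 2.35). That interval spans 1, so these counts cannot tell the shallow level from the T cell level. Counted per 100 barcodes outside the rich ones, parous casein UMIs were 0 in barcodes of 500 to 1000 total UMIs, 0 from 1000 to 2000, 0.433 from 2000 to 4000, 1.01 from 4000 to 8000 and 0 from 8000. The zeros from 1000 to 2000 and from 8000 have upper limits of 1.33 and 1.89, above the values of the bins between them. The zero from 500 to 1000 has an upper limit of 0.194 per 100 barcodes, for barcodes that hold fewer UMIs each.

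Across the 10 members in Cd3-positive cells, 9 had at least 10 UMIs over both libraries, and 8 of these were higher in the parous library by at least 1.5-fold and 0 lower by as much. Of all 13788 genes with as many UMIs, 8.61% were as much higher and 16.2% as much lower. Csn1s1, Csn2, Csn3, Lcn2 and Krt8 had 0 virgin UMIs, Wfdc18 had 1 and Krt18 had 6. These members reached 10 UMIs only through the parous library and so could not have come out lower. The count is therefore no evidence of a direction by itself. Without the rich barcode, 3 members had 10 UMIs (Mfge8, Epcam and Krt18) and 1 of them, Epcam, was at least 1.5-fold higher. Of the 13699 genes measured that way, 7.75% were as much higher and 16.8% as much lower. The 8 members therefore came down to 1 when 1 of 2992 cells was left out. Within each library the level in other cells was at least 1.5-fold above that in Cd3-positive cells for all members with 10 UMIs, 9 of 9 in the parous library (51.2% of all genes) and 6 of 6 in the virgin library (43.7% of all genes). Those counts rest on the 3 parous and 1 virgin rich barcodes among the other cells. Without them, every member but Mfge8 had 0 UMIs in the other cells, 27 parous and 14 virgin. In the virgin Cd3-positive cells Lcn2 and Krt8 had 0 UMIs, Wfdc18 1 and Krt18 6. There these members reached 10 UMIs only through the other cells, which fixed their direction.

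**Figure D3:**
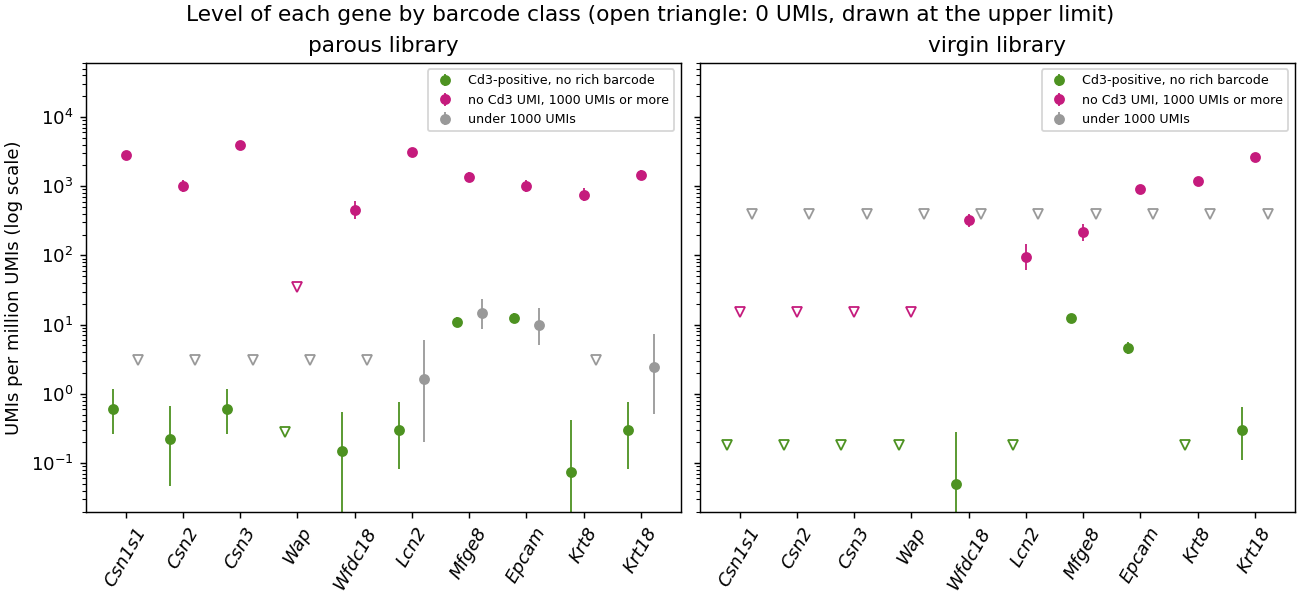
Points give CPM (log scale) for each gene in Cd3-positive cells without the rich barcode (green), other cells (pink) and barcodes under 1000 UMIs (grey), with 95% Poisson intervals. Open triangles mark genes with 0 UMIs, at the upper limit that the interval allows. Mfge8 and Epcam are the genes with levels between 4 and 15 CPM in Cd3-positive cells, while the caseins, whey genes and keratins lie under 1.

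Of the whey and secreted proteins, Wap, the major whey protein of mouse milk, had 0 UMIs in every class of both libraries, which allows up to 0.204 CPM (parous) and 0.149 CPM (virgin). Wfdc18, a small protein of the same whey acidic protein fold, had 81 UMIs in the parous library, 79 of them in rich barcodes. The virgin library had 78, with 77 in its rich barcode. Wfdc18 was thus present in 1 virgin barcode that lacked caseins. In Cd3-positive cells outside the rich barcodes, Wfdc18 had 2 parous UMIs in 1 cell and 1 virgin UMI.

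Lcn2, lipocalin 2, a siderophore-binding protein made by epithelia and neutrophils, had 448 parous and 23 virgin UMIs. Rich barcodes held 98.7% of the parous UMIs and all of the virgin UMIs. The other parous Cd3-positive cells held 4 Lcn2 UMIs in 3 cells (0.300 CPM, 0.0818 to 0.769), virgin ones held 0 in 2499 cells, and the shallow parous barcodes held 2 (1.65 CPM, 0.199 to 5.95). The neutrophil marker list was at 0 in the other cells of both libraries outside the rich barcodes, and at 3 UMIs in the parous Cd3-positive cells.

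The keratins followed the same pattern. Krt8 had 139 UMIs in the parous library, 99.3% of them in rich barcodes, and 281 in the virgin library, all in 1 barcode. Krt18 had 248 parous UMIs, 97.2% in rich barcodes, and 635 virgin UMIs, 99.1% in 1 barcode. Outside the rich barcodes, the Cd3-positive cells had 1 Krt8 UMI and 4 Krt18 UMIs in the parous library and 0 and 6 in the virgin library. Krt18 then stood at 0.300 and 0.301 CPM, so the 22.1-fold difference over all Cd3-positive cells (9.77 to 61.9) was that of the single rich barcode.

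Mfge8 and Epcam had another distribution. Mfge8 encodes the milk fat globule protein MFG-E8, which also bridges dying cells to phagocytes and is made by several cell types of the fat pad. Rich barcodes held 203 of its 381 parous UMIs (53.3%) and 36 of its 299 virgin UMIs. Outside them, 145 UMIs lay in 123 of 2991 parous Cd3-positive cells (4.11%) and 247 UMIs in 189 of 2499 virgin cells (7.56%). These are 10.9 CPM (9.19 to 12.8) and 12.4 (10.9 to 14.0), a parous to virgin ratio of 0.878 (0.710 to 1.08). With the rich barcode included the ratio was 1.31 (1.09 to 1.58), so the direction turned with that barcode. Thinned to 1000 UMIs per cell, 1.04% (0.705% to 1.47%) of parous and 1.32% (0.911% to 1.85%) of virgin Cd3-positive cells outside the rich barcodes had an Mfge8 UMI.

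Among the other cells outside the rich barcodes Mfge8 was higher, at 246 CPM in the parous library (15 UMIs in 4 of 27 cells) and 200 in the virgin library (16 UMIs in 3 of 14 cells). Of the parous UMIs, 11 lay in a cell of 7266 UMIs with 242 UMIs of adipocyte markers. Of the virgin UMIs, 7 lay in a cell with 478 UMIs of adipocyte markers and 7 in a cell with 165 of fibroblast markers. Shallow parous barcodes stood at 14.8 CPM (8.78 to 23.4), near the T cell level. What part RNA of such cells has in the T cell level was not tested.

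Epcam had 343 parous and 312 virgin UMIs, of which rich barcodes held 48.1% and 70.5%. Outside them, the parous Cd3-positive cells had 166 UMIs in 129 of 2991 cells, at most 5 in a cell, and the virgin cells had 92 UMIs in 73 of 2499. The levels were 12.5 CPM (10.6 to 14.5) and 4.62 (3.72 to 5.66), a 2.70-fold difference (2.08 to 3.52) with no replicate check. The share of cells with a UMI was 4.31% (3.61% to 5.10%) and 2.92% (2.30% to 3.66%). After each cell was thinned to 1000 UMIs, it was 1.30% (0.929% to 1.78%) and 0.240% (0.0882% to 0.522%), with no cell left out. Of the 27 parous and 14 virgin other cells outside the rich barcodes, 15 and 3 held UMIs of a T cell marker list, though none of Cd3. Macrophage or monocyte markers were in 10 and 5 of them, and dendritic cell markers in 6 and 5. Adipocyte markers were in 10 and 3, and fibroblast markers in 2 and 3. Epcam had 0 UMIs in these 27 parous cells (median 1840 UMIs) and 0 in these 14 virgin cells (median 4871 UMIs). Those zeros allow up to 49.2 and 37.5 CPM, above both T cell levels.

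**Figure D4:**
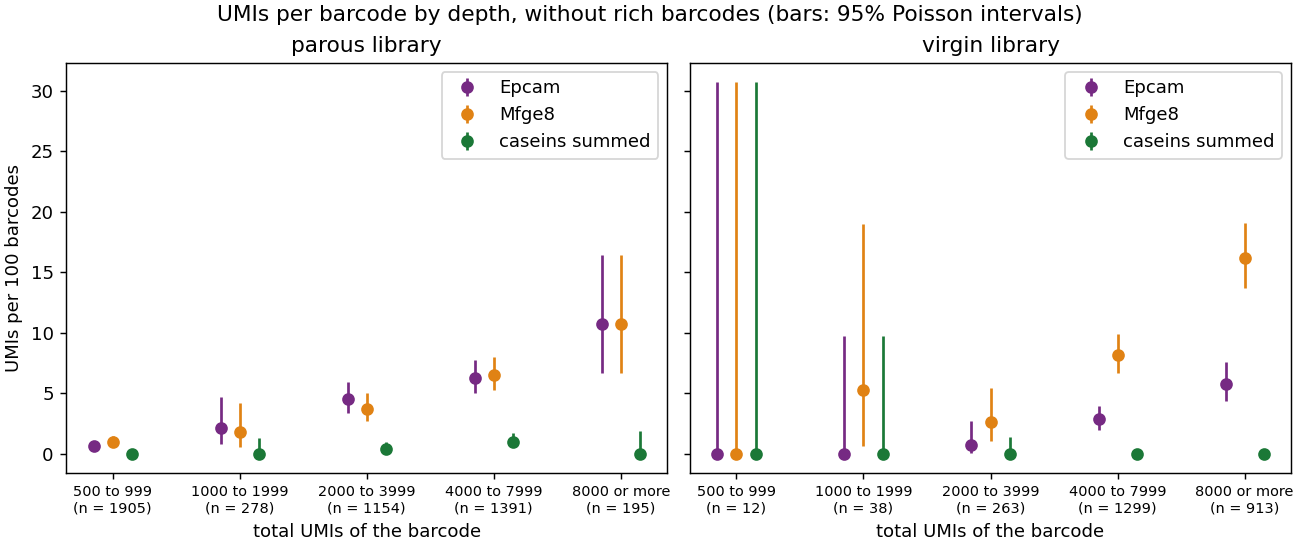
Points give UMIs per 100 barcodes of Epcam, Mfge8 and the summed caseins in bins of total UMIs per barcode, without rich barcodes, with 95% Poisson intervals and the number of barcodes under each bin. In the parous library Epcam goes from 0.630 to 10.8 and Mfge8 from 0.945 to 10.8 between the shallowest and deepest bins, while the caseins stay at or under 1.01.

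Epcam and Mfge8 counts followed the depth of the barcode. In the parous library, Epcam had 0.630 UMIs per 100 barcodes in barcodes of 500 to 1000 total UMIs, then 2.16, 4.51, 6.25 and finally 10.8 at 8000 or more. Mfge8 had 0.945, 1.80, 3.73, 6.54 and 10.8. Shallow parous barcodes stood at 9.88 CPM of Epcam (5.10 to 17.3), and all 12 of their Epcam UMIs lay in barcodes with a Cd3 UMI, which were 1566 of the 1905 and held 1009693 of their 1214831 UMIs.

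Epcam also differed between T cell states in the parous library. Resident-marked parous cells stood at 20.4 CPM and naive-marked ones at 3.76, a 5.42-fold difference (2.92 to 11.2), and of all genes measured in that comparison 28.1% were at least 1.5-fold higher in the resident-marked cells. The virgin values were 4.55 and 2.35, a ratio of 1.94 (0.987 to 3.99), where 31.7% of genes were at least 1.5-fold higher. Between the libraries, resident-marked cells differed 4.47-fold (2.94 to 7.04), where 10.3% of genes were at least 1.5-fold higher in the parous library. Naive-marked cells differed 1.60-fold (0.657 to 3.79), an interval that spans 1, where 5.97% of genes were at least 1.5-fold higher. Whether the state difference itself differed between the libraries was not tested.

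A second split used Fcer1g and Tyrobp, adaptor proteins that couple activating receptors of innate-like lymphocytes to their kinases. This split was added after the values had been seen. Adaptor-marked cells, with a UMI of either gene, were 590 of 2991 parous cells (19.7%) and 145 of 2499 virgin cells (5.80%). They held 100 of the 166 parous Epcam UMIs, or 60.2% (52.4% to 67.7%), and 20.5% of all UMIs of these cells. Epcam stood at 36.7 CPM in parous cells with an adaptor UMI and at 6.23 in those without, a 5.89-fold difference (4.27 to 8.16), where 14.5% of genes were at least 1.5-fold higher in adaptor-marked cells. In the virgin library it stood at 10.6 and 4.10, a 2.58-fold difference (1.43 to 4.41), where the share of genes was 17.7%.

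Between the libraries, Epcam was 3.47-fold higher (2.06 to 6.19) in parous adaptor-marked cells, where 12.6% of genes were at least 1.5-fold higher. In cells without an adaptor UMI the ratio was 1.52 (1.08 to 2.15), where 6.31% of genes were at least 1.5-fold higher. Among resident-marked cells without an adaptor UMI, Epcam stood at 6.13 CPM in 919 parous cells and 4.63 in 696 virgin cells. Dividing cells, with a UMI of Mki67 or Top2a, stood at 0.901 times the Epcam level of the remaining cells in the parous (0.481 to 1.56) and 1.12 times in the virgin library (0.660 to 1.83), both intervals spanning 1. A cell with more UMIs is more likely to show an adaptor UMI, and the median depth was 4224.5 UMIs with and 4087 without in the parous library, and 8901 and 6918 in the virgin library.

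**Figure D5:**
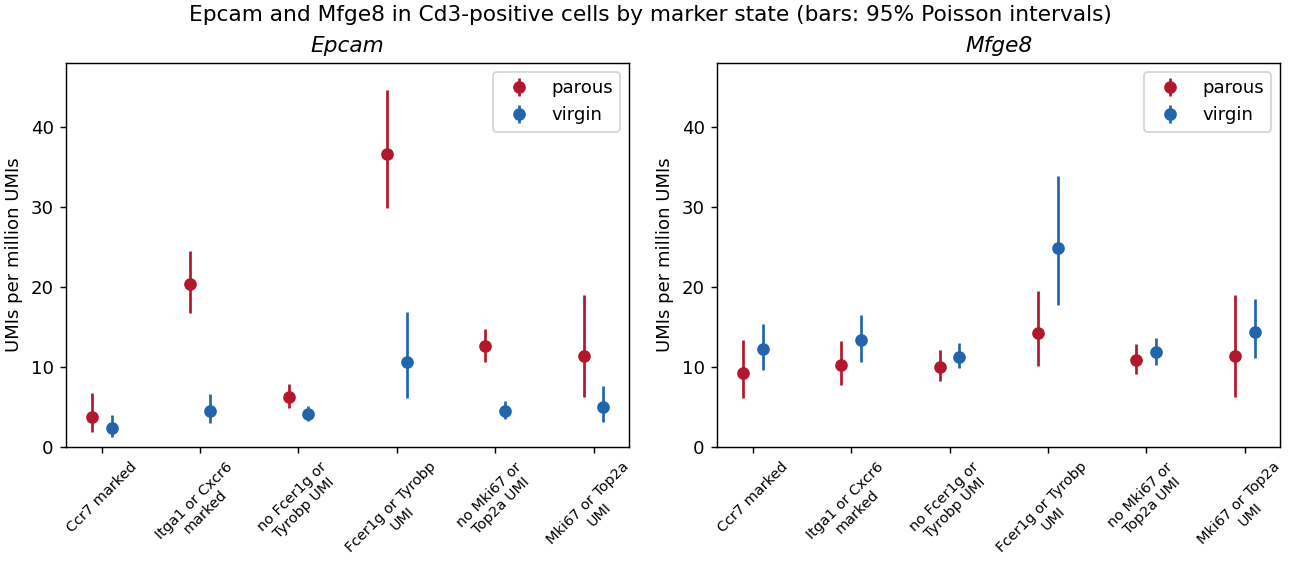
Points give CPM of Epcam (left) and Mfge8 (right) in Cd3-positive cells without rich barcodes, by marker state, for the parous (red) and virgin (blue) library, with 95% Poisson intervals. Parous Epcam stands at 36.7 in cells with a UMI of Fcer1g or Tyrobp and at 6.23 in cells without, while Mfge8 lies between 9.22 and 14.4 in each state but the virgin cells with such a UMI, at 24.9.

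By state, Mfge8 stood at 9.22 CPM in naive-marked and 10.2 in resident-marked parous cells, and at 12.2 and 13.3 in virgin cells. The adaptor-marked cells stood at 14.3 CPM (parous) and 24.9 CPM (virgin), which is 1.43 times (0.964 to 2.08) and 2.20 times (1.53 to 3.10) the level of cells without an adaptor UMI. Here the virgin cells were the higher, with a parous to virgin ratio of 0.575 (0.360 to 0.917), where 23.4% of genes were lower in parous cells by at least 1.5-fold. Dividing cells stood at 1.05 (0.556 to 1.82) and 1.22 (0.900 to 1.63) times the level of the others.

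Other genes of milk and of the epithelium, on lists that include no member (Prlr is on both the milk and the luminal list), showed which of them lay in the T cells. On a list of 30 milk and lactation genes, 15 had 10 UMIs in Cd3-positive cells. Of these, 8 were at least 1.5-fold higher in the parous library (8.61% of all genes) and 2 lower (16.2% of all genes). The median log2 ratio was 1.23, against -0.14 over all genes. Without the rich barcode, 11 were measured, 3 were higher (7.75% of all genes), 3 lower (16.8%) and the median was -0.22. Those higher were Trf (10.7-fold), Cd36, a fatty acid receptor (4.49-fold, from 9 and 3 UMIs), and Muc1, a membrane mucin (3.07-fold). Those lower were Spp1, osteopontin (20.2-fold, from 10 UMIs in 7 parous and 302 in 30 virgin cells), Wfdc2 (2.23-fold, from 3 and 10 UMIs) and Slpi, a protease inhibitor (2.09-fold). Csn1s2a, Ltf and Lalba were under 10 UMIs there, with 0, 1 and 1 UMIs in the parous and 0 in the virgin T cells.

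Trf was the milk gene with the most UMIs inside T cells among those higher in the parous library, with 350 UMIs in 200 of 2991 parous cells (26.3 CPM) and 49 in 22 of 2499 virgin cells (2.46). Adaptor-marked cells held 85.4% (81.3% to 89.0%) of the parous Trf UMIs and 20 of the 49 virgin ones (40.8%). Of all UMIs of the Cd3-positive cells they held 20.5% (parous) and 8.07% (virgin). In parous adaptor-marked cells Trf stood at 109.6 CPM and in the others at 4.81, a 22.8-fold difference (16.9 to 31.3). The virgin levels were 12.4 and 1.58 CPM, a 7.85-fold difference (4.21 to 14.4).

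On the luminal epithelial list of 24 genes, 15 were measured, with 12 higher (8.61% of all genes) and 1 lower (16.2%) in the parous library. The median log2 ratio was 2.29. Without the rich barcode, 8 were measured, 3 were higher (7.75% of all genes), 2 lower (16.8%) and the median was 0.45, against -0.15 over all genes. Cdh1, which encodes E-cadherin, the ligand of the integrin that Itgae encodes, was 12.8-fold higher with 420 UMIs in 317 parous and 49 in 41 virgin cells. Areg was 8.02-fold higher with 118 UMIs in 59 parous and 22 in 9 virgin cells, and Aldh1a3 was 2.24-fold higher from 9 and 6 UMIs. Esr1, the oestrogen receptor gene, was 1.73-fold lower, and Cldn4, a tight junction claudin, 1.67-fold lower from 4 and 10 UMIs. Krt19 had 1 UMI in parous and 0 in virgin T cells. On the basal list of 14 genes, 1 was measured, Tagln, with 9 and 7 UMIs (1.92-fold higher).

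The genes whose levels went most closely with the summed caseins over the 4927 parous barcodes were Clu (clusterin, Pearson r 0.86), Csn1s2a (0.86), Igfbp5 (0.84), Atp6v1b1 (0.84), Fxyd3 (0.83), Aqp5 (0.83), Clca3a2 (0.78), Cldn3 (0.75), Ltf (0.74) and Lalba (0.74). The members ranked as Lcn2 (0.78), Krt8 (0.69), Wfdc18 (0.61), Krt18 (0.54), Mfge8 (0.28) and Epcam (0.18). These values use log2 of 1 plus UMIs per 10000 UMIs, and all barcodes share a library. For genes that kept at least 30 UMIs without the 4 rich barcodes, the highest r there was 0.15, that of Scimp. The genes listed from Clu to Lalba kept fewer than 30 UMIs, so that value does not bear on them. The 4 rich barcodes held from 90.7% (Clca3a2) to 100% (Csn1s2a and Aqp5) of their UMIs. Mfge8 and Epcam kept 178 UMIs each, with an r of 0.05 and 0.06 outside the rich barcodes. Wfdc18, Lcn2, Krt8 and Krt18 kept fewer than 30 UMIs and were given no such r. With 0 casein UMIs the virgin library gives no such value.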

How the data were processed

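Per the labels, Chromium 5′ version 2 libraries were made from sorted cells. Per the file headers and the submitters' processing notes, the deposited matrices hold UMI counts per gene and barcode, not normalized, from Cell Ranger 7.0.0. The notes also name the build mm10, R 4.4.2 and Seurat, with no role given. The settings that called barcodes are not given in the sources used here. The lowest barcode total was 500 UMIs (parous) and 524 UMIs (virgin).

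Counts were summed over barcode classes with Python 3.11.15, pandas 2.3.3 and scipy 1.17.1. A level is in CPM, UMIs of a gene per 1000000 UMIs of the class, with exact 95% Poisson intervals. Ratios have exact conditional intervals, and shares have Clopper-Pearson intervals. PCR duplicates are collapsed by UMIs, and the intervals cover counting error only. A gene counted as higher or lower from 1.5-fold, on counts with 0.5 added, when it had at least 10 UMIs over both libraries. With 1 library per group no test was made. The members and lists were chosen with earlier results of these data known. Named genes were the 10 members, the members of each list past 1.5-fold (up to 6 per list), and the 10 genes correlating best with the caseins among those with at least 30 UMIs. Other genes, such as Krt19, Csn1s2a and Areg in single barcodes, were chosen after their values were seen. Gene positions are from GENCODE M21 on GRCm38 by Ensembl ID. The code was tested on simulated data. The alternatives were other depth floors, Cd3 rules, cell filters and scalings, thinning, and leaving out shared barcodes or rich barcodes.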

Additional observations from a re-analysis of the deposited data

How the results depend on the processing

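No paired analysis was possible because each group has 1 library, and no library could be left out. No main comparison reversed, and Mfge8 changed sign. Of the values computed under the alternatives for the main comparisons, 56 stayed near the reported value and 24 moved. The parous casein level in Cd3-positive cells over the virgin floor of 3 UMIs (177-fold) was 9.66-fold with Cd3e alone as the T cell gene. It was 9.47-fold without casein-rich barcodes, 9.47-fold without casein- or keratin-rich ones (added after the data were seen) and 29.8-fold as a mean over barcodes. The parous casein level in these cells (26.7 CPM) was 1.46, 1.43, 1.43 and 4.49 in the same order, and the number of members higher (8) was 1, 1, 1 and 5. In other cells (7770 CPM) it was 2663 at a depth floor of 500 UMIs, 9818 at 2000, 5838 with at least 2 Cd3 UMIs required, 2487 with Cd3e alone, 1671 as a mean over barcodes and 0 without either kind of rich barcode. The share of parous Cd3-positive cells with a casein UMI (0.401%) was 0.134% thinned to 1000 UMIs, 0.167% thinned to 500 and 0.1003% when 2 casein UMIs were required. Another random thinning gave 0.167% (5 cells) at 1000 UMIs and 0.0668% (2 cells) at 500, so no order is read from these few cells. That of other cells (6.67%) was 0.542% at a floor of 500 and 0 without rich barcodes. The Cd3e rule moves the 35384-UMI barcode, which has no Cd3e UMI, out of the Cd3-positive class. For single members 61 values stayed and 29 moved. Mfge8 changed sign, from a log2 ratio of 0.39 to -0.18 with Cd3e alone, -0.19 without rich barcodes and -0.11 as a mean over barcodes. Krt18 went from 4.36 to 0.08, 0.05 and 1.43 in that order, and Epcam kept its direction, at 1.43 or above. Scaling by the median of ratios subtracted a shift of -0.13, which raised the log2 ratio of Epcam from 1.86 to 1.98 and that of Mfge8 from 0.39 to 0.52, and left the count of higher members at 8. With no barcodes under 500 UMIs in the parous library, the class of shallow barcodes had no value at that floor. The virgin class of shallow barcodes had 12 barcodes, where 3 UMIs are 327 CPM.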
